A study of Mus musculus with 12 samples.

Results

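The genes described here are the 10 heat shock proteins and chaperones Hspa1a, Hspa1b, Hspa8, Hsp90aa1, Hsp90ab1, Hspb1, Hsph1, Dnajb1, Hspd1 and Hspe1, out of 18193 genes measured in mouse liver. They were chosen by name, and a gene with several probe sets was read from the one whose mean over the 12 arrays was highest. A probe set was available for 9 of the 10, with 22 probe sets in all, and Hsp90ab1 was not analysed here. The label of the group says cytosolic, but Hspd1 and Hspe1 encode the chaperonin of the mitochondrial matrix.

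RNA came from livers of C57Bl/6 mice aged 3 months and was hybridised to Affymetrix GeneChip arrays, 1 array per sample. The 3 groups of 4 arrays were wild type, Atp7b-/- without any agent, and Atp7b-/- labelled as Zn treated. Atp7b encodes the ATPase that exports copper from hepatocytes into bile, and its loss leads to copper overload. How the allele disrupts the gene, and the dose and duration of zinc, are not stated in the labels. Separate mice are stated only for the zinc-treated group, so the p-values reflect only how much these arrays differ, and some of that may be technical.

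Levels are log2 intensities, so a difference of 1 is a doubling. Atp7b itself, at chr8:21992783-22060074, lay between 8.51 and 8.69 in wild type, between 6.91 and 7.25 in Atp7b-/- and between 6.57 and 6.98 with zinc. Pancreatic acinar markers averaged 9.54 and 6.83 in zinc-treated replicates 2 and 3, where the other 10 arrays lay between 5.37 and 5.78. Untreated Atp7b-/- replicate 1 correlated least with its group (median r = 0.991). The excess of 3' over 5' control probe sets (actin and Gapdh), which grows as RNA degrades, was 0.79 to 0.88 in untreated Atp7b-/-, 0.62 to 0.78 in wild type and 0.54 to 0.74 with zinc. Every untreated Atp7b-/- array lay above the arrays of both other groups, so this measure and the group cannot be told apart there. Hepatocyte markers were near the top of the scale in every group, with a summed level of 16.92 to 16.95 in wild type, 16.93 to 17.01 in Atp7b-/- and 16.89 to 16.99 with zinc (7 of 8 markers measured). These sums are set mainly by the brightest markers. In untreated Atp7b-/- against wild type, Fah differed by 0.35 and Hnf4a by -0.25 (limma adjusted p = 0.00575 and 0.0233). With these, 28.6% of the 7 passed an adjusted p under 0.05, against 24.6% of all genes.

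Heat shock proteins keep other proteins folded. HSP70 proteins bind exposed hydrophobic stretches in a cycle of ATP hydrolysis, which J-domain proteins such as Dnajb1 start and exchange factors such as Hsph1 reset. HSP90 acts later on signalling proteins, small heat shock proteins such as Hspb1 hold unfolding proteins without ATP, and the chaperonin Hspd1 folds proteins in a chamber that Hspe1 closes. Many of these genes are switched on by heat, oxidants and heavy metals through the transcription factor HSF1, which binds as a trimer to heat shock elements, inverted repeats of the unit GAA.

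To show which of the genes carry such elements next to their start, the 250 bases upstream of each start in the RefSeq annotation of GRCm38 were searched for a pair of inverted units (GAANNTTC or TTCNNGAA, which covers both strands) and for 3 alternating units with the same spacing. A hit of 3 units also contains the overlapping pairs. Windows were found for 7 of the 10 genes, with none for Hspa8, Hsp90aa1 and Hsp90ab1. Hspd1, Hsph1 and Dnajb1 each have 2 annotated starts and so 2 windows. A pair was present in at least 1 window of 6 of these 7 genes (Hspa1a, Hspa1b, Hspb1, Hsph1, Hspd1 and Hspe1), and in 14.5% of the 27025 genes with a window. The stretch of 3 units was present at Hspd1 and Hspe1, and in 0.514% of all genes. Hspd1 and Hspe1 share the same stretch of DNA, and the Hspa1a and Hspa1b windows are nearly identical. These genes are therefore not independent counts to set beside the shares of all genes. A match describes the letters and is not evidence of binding.

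The upstream windows of the 3 genes that were called lower in Atp7b-/- (adjusted p under 0.05) are printed from 5' to 3' on the strand of the gene, with matches in capitals. Hspa1b lies on the minus strand (chr17:34959239-34959488), and Hspb1 (chr5:135887669-135887918) and Dnajb1 (chr8:83607925-83608174) on the plus strand. The last line gives, on the plus strand, the 215 bases between the Hspe1 start and the inner of the 2 Hspd1 starts, from which the genes are transcribed away from each other (chr1:55087933-55088147).
Hspa1b: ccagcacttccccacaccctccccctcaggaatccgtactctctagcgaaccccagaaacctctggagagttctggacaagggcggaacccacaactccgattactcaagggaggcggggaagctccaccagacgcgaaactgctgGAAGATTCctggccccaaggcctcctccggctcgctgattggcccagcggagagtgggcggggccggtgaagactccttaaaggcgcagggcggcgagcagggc
Hspb1: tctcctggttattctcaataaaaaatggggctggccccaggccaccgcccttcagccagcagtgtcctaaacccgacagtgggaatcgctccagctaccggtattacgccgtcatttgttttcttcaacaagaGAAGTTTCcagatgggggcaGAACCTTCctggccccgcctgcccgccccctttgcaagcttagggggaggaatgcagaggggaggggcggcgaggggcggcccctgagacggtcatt
Dnajb1, outer start: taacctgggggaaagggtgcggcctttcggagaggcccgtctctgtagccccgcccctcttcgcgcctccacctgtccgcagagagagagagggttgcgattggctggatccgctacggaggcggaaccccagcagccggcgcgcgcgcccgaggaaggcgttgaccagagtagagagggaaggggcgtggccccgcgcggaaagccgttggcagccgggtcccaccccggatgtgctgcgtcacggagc
Hspd1-Hspe1: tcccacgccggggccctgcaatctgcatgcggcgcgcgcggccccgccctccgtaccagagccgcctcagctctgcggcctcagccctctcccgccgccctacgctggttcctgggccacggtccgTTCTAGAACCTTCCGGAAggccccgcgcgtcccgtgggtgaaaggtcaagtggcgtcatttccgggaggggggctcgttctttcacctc

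The Hspa1b window holds 1 pair, whose first base is at position -104, counted back from the transcript start. The Hspa1a window is the same at 247 of its 250 bases (98.8%) and carries the pair at the same place. Hspb1 has pairs at -117 and -97. Neither Dnajb1 window had a match, which says only that these letters are not in these stretches. In the shared Hspd1 and Hspe1 stretch, 2 overlapping runs of 3 units begin at -89 and -84 from the Hspe1 start. The window of the other Hspd1 start, at position 55088243 and so inside Hspe1, held no match.

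Compared with wild type, untreated Atp7b-/- liver had less Dnajb1 and Hspb1 mRNA. Hspa1b was also called lower, but its arrays overlapped wild type and the call was lost in 15 of 23 alternative settings. None of the 9 measured genes was higher at the threshold. The constitutive HSP70 Hspa8, the HSP90 Hsp90aa1 and the mitochondrial chaperonin Hspd1 differed by at most 0.03 from wild type. Of the 9 genes, 3 were called lower and 0 higher (limma, adjusted p under 0.05 over all genes), where 24.6% of all genes were called, 10.3% lower and 14.3% higher. Their median difference was -0.02, against -0.05 over all genes. With zinc, Dnajb1 and Hspa1b were at or below their untreated Atp7b-/- means, and Hspb1 lay between its untreated and wild type means.

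**Figure D1:**
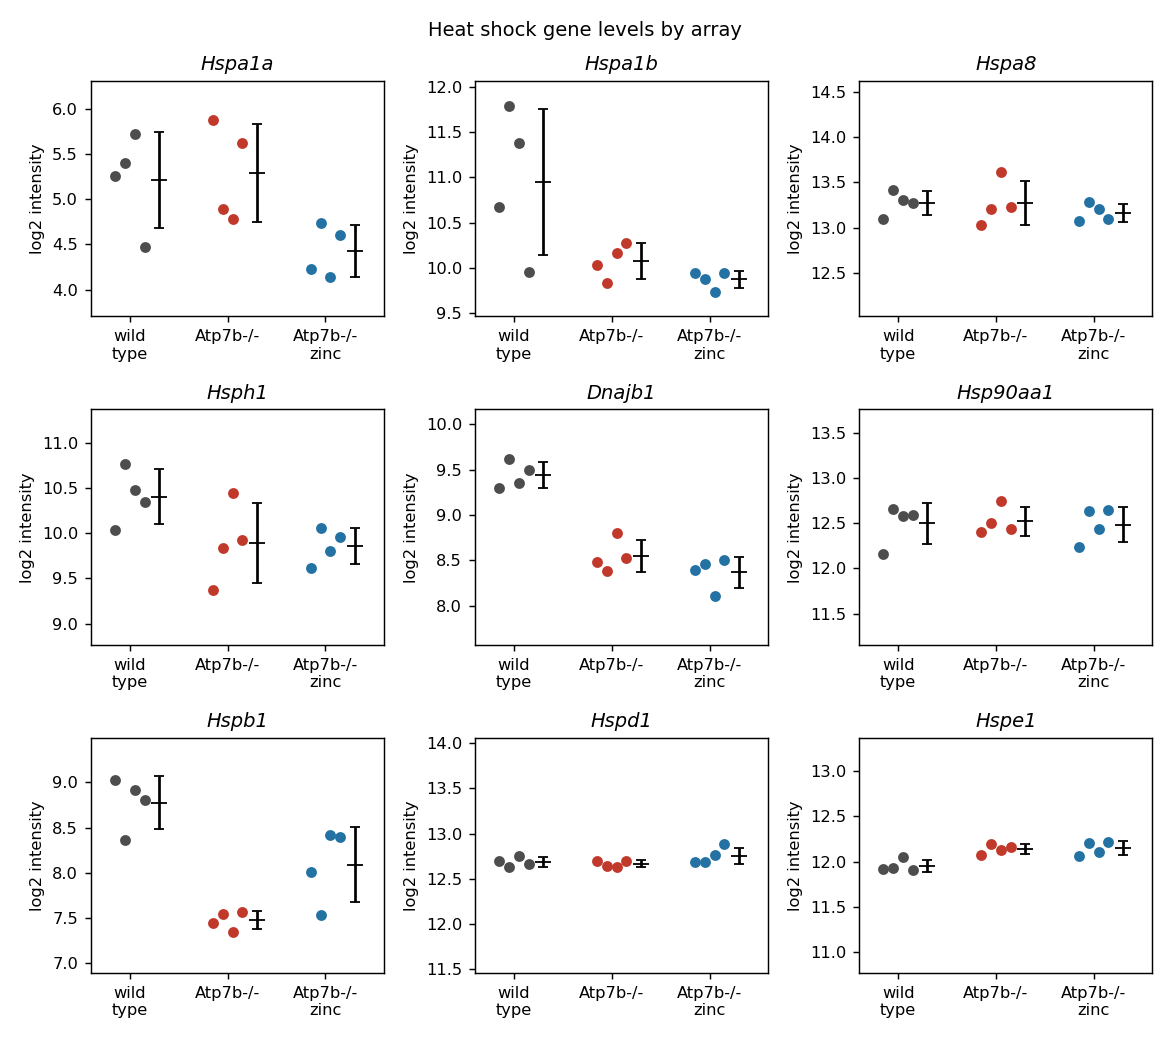
Log2 intensity (vertical axis, 2.6 log2 units high in every panel) of the 9 measured genes in 4 arrays each of wild type, untreated Atp7b-/- and zinc-treated Atp7b-/- liver, with group mean and SD beside the points. All 8 mutant arrays of Dnajb1 (8.11 to 8.80) lie below all wild type arrays (9.30 to 9.62), whereas the points of Hspa8, Hsp90aa1 and Hspd1 overlap between the groups.

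Dnajb1, at chr8:83608175-83612653, encodes the J-domain partner that delivers clients to HSP70. It read 9.30, 9.62, 9.35 and 9.50 in wild type, 8.48, 8.38, 8.80 and 8.52 in Atp7b-/-, and 8.39, 8.46, 8.11 and 8.50 with zinc. Neither mutant group overlapped wild type, and the mutant groups overlapped each other. The group means were 9.44 ± 0.15 (SD, n = 4), 8.55 ± 0.18 and 8.36 ± 0.17. Dnajb1 was 1.86-fold lower in untreated Atp7b-/- than in wild type (log2 difference -0.90, SE 0.11, limma adjusted p = 7.12e-05). With zinc it was 2.11-fold lower than in wild type (-1.08, SE 0.11, limma adjusted p = 4.26e-05). Zinc-treated and untreated mutants differed by -0.18, with a 95% interval of -0.42 to 0.06. A second Dnajb1 probe set also read every mutant array below every wild type array, with differences from wild type of -0.73 and -0.71 without and with zinc.

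Hspa1b, at chr17:34956429-34959238, and its neighbour Hspa1a, at chr17:34969359-34972156, encode the stress-inducible HSP70. Probe sets of such similar genes may bind both transcripts, so the Hspa1b reading may include Hspa1a. Hspa1b read 10.67, 11.79, 11.38 and 9.96 in wild type, 10.03, 9.83, 10.17 and 10.28 in Atp7b-/-, and 9.94, 9.88, 9.74 and 9.94 with zinc. Wild type replicates 1 to 3 were above every mutant array, but wild type replicate 4 was below 3 of the 4 untreated mutant arrays. The SD was 0.81 in wild type, 0.19 in Atp7b-/- and 0.10 with zinc. The mean was 1.83-fold lower in untreated Atp7b-/- (-0.87, SE 0.29, limma adjusted p = 0.0407) and 2.10-fold lower with zinc (-1.07, SE 0.29, limma adjusted p = 0.0363).

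These Hspa1b calls lay near the threshold. The call for untreated Atp7b-/- against wild type was lost in 15 of 23 alternative settings. Among them were 9 in which 1 array was left out: wild type replicate 2 or 3, any untreated Atp7b-/- array, or zinc-treated replicate 1, 2 or 4. The difference was then between -0.94 and -0.59, and smallest without wild type replicate 2 (-0.59) or 3 (-0.73). The call with zinc was lost in 12 of 23 settings, among them 7 in which 1 array was left out (wild type replicates 1, 2 and 3 and every zinc-treated array), with differences between -1.17 and -0.79. The other 2 Hspa1b probe sets followed the same arrays, with differences from wild type of -1.22 and -1.0 without zinc and -1.36 and -1.12 with it.

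The single probe set of Hspa1a was dim. It read 5.26, 5.40, 5.72 and 4.47 in wild type, 5.87, 4.89, 4.78 and 5.62 in Atp7b-/-, and 4.23, 4.74, 4.14 and 4.61 with zinc, whereas array medians lay between 5.63 and 5.71. Every zinc-treated array was below every untreated mutant array. The difference with zinc was -0.86 from untreated Atp7b-/- (limma adjusted p = 0.0839) and -0.78 from wild type (limma adjusted p = 0.111). Neither passed. Without wild type replicate 4 both passed, at -0.86 (adjusted p = 0.0443) and -1.03 (adjusted p = 0.0223).

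Hspa8, at chr9:40801276-40805202, encodes the HSP70 that all cells make without stress. It read 13.10, 13.42, 13.31 and 13.27 in wild type, 13.03, 13.21, 13.61 and 13.23 in Atp7b-/-, and 13.07, 13.28, 13.21 and 13.10 with zinc. The 3 ranges overlapped. The difference from wild type was -0.01 (95% interval -0.25 to 0.24) without zinc and -0.11 (-0.36 to 0.13) with it. Of the other 3 Hspa8 probe sets, 2 gave differences of 0.22 and 0.13 without zinc. The dimmest, with a mean of 7.76, gave -0.54 without and -0.58 with zinc and scattered most, from 5.98 to 9.57 within untreated Atp7b-/-.

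Hsph1, at chr5:149616843-149636498, encodes the HSP110 protein that exchanges nucleotide on HSP70. It read 10.03, 10.76, 10.48 and 10.34 in wild type, 9.37, 9.84, 10.44 and 9.92 in Atp7b-/-, and 9.61, 10.06, 9.80 and 9.96 with zinc. Of the 8 mutant arrays 6 were below every wild type array on the probe set used, but the ranges overlapped. Its differences from wild type, -0.51 (95% interval -0.94 to -0.08) and -0.54 (-0.97 to -0.11), did not pass (limma adjusted p = 0.0787 and 0.127). The first passed without untreated Atp7b-/- replicate 3, at -0.69, and without wild type replicate 1, at -0.63. The second Hsph1 probe set gave differences from wild type of -0.58 without zinc and -0.35 with it. On that probe set every zinc-treated array (8.30 to 8.68) was above the lowest wild type array (8.29).

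Hsp90aa1, at chr12:110691036-110696395, encodes the stress-inducible cytosolic HSP90. It read 12.16, 12.66, 12.58 and 12.59 in wild type, 12.40, 12.50, 12.75 and 12.43 in Atp7b-/-, and 12.24, 12.63, 12.43 and 12.64 with zinc. The groups overlapped, and the differences from wild type were 0.03 (95% interval -0.25 to 0.30) and -0.01 (-0.28 to 0.26). Of the other 4 probe sets, the 2 brightest gave -0.25 and -0.21 without zinc, with overlapping arrays.

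Hspb1, at chr5:135887919-135889563, encodes the small heat shock protein that binds unfolding proteins and protects actin filaments. It read 9.03, 8.36, 8.91 and 8.80 in wild type, 7.45, 7.55, 7.35 and 7.57 in Atp7b-/-, and 8.01, 7.54, 8.42 and 8.40 with zinc. Every untreated mutant array was below every wild type array. In the zinc group, replicates 3 and 4 reached the lowest wild type array, replicate 1 lay between the groups, and replicate 2 was among the untreated mutant arrays. Hspb1 was 2.45-fold lower in untreated Atp7b-/- (-1.30, SE 0.18, limma adjusted p = 0.000186), the largest difference among the 9 genes.

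With zinc, Hspb1 was 1.61-fold lower than wild type (-0.68, SE 0.18, limma adjusted p = 0.0358). It was 1.53-fold higher than in untreated Atp7b-/- (0.61, SE 0.18, 95% interval 0.22 to 1.00), which did not pass (limma adjusted p = 0.0637). Without zinc-treated replicates 2 and 3 the latter was 0.72 (adjusted p = 0.0454) and the former -0.57 (adjusted p = 0.102). Leaving out zinc-treated replicate 2 alone gave 0.79 and -0.50 (adjusted p = 0.0107 and 0.0837). The difference of zinc-treated from wild type also lost its call without wild type replicate 1, 3 or 4 or zinc-treated replicate 1. That of zinc-treated from untreated also passed without wild type replicate 2, at 0.61 (adjusted p = 0.0447). The second Hspb1 probe set gave -1.54, 0.51 and -1.03 for untreated against wild type, zinc-treated against untreated, and zinc-treated against wild type. On that probe set no zinc-treated array reached wild type (6.82 to 8.03, against 8.15 to 8.62).

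**Figure D2:**
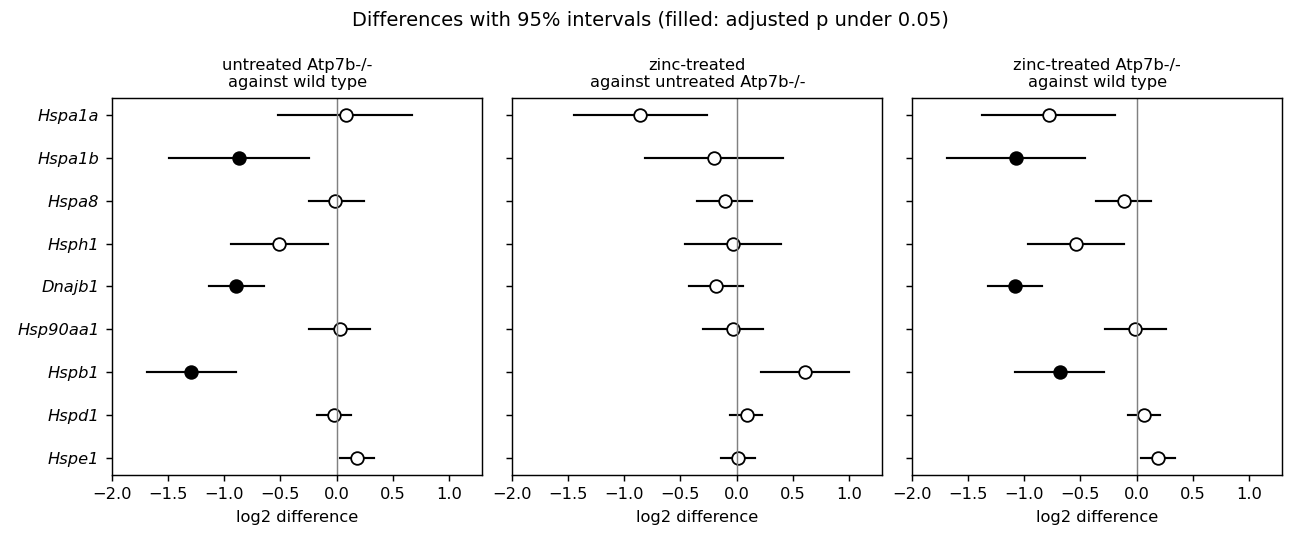
Log2 differences (horizontal axis) with 95% intervals from limma for the 9 genes in the 3 comparisons. Filled points passed an adjusted p under 0.05. Dnajb1, Hspa1b and Hspb1 are filled in both comparisons with wild type, and no point is filled for zinc-treated against untreated Atp7b-/-.

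Hspd1 and Hspe1 lie head to head on chromosome 1, overlapping at their starts, at chr1:55077833-55088243 and chr1:55088148-55091317. Hspd1 read 12.70, 12.63, 12.75 and 12.66 in wild type, 12.70, 12.64, 12.63 and 12.70 in Atp7b-/-, and 12.68, 12.69, 12.76 and 12.88 with zinc. It had the smallest spread of the 9 genes in both untreated groups, with an SD of 0.05 in wild type and 0.03 in Atp7b-/-. Its difference from wild type was -0.02 without zinc (95% interval -0.17 to 0.13) and 0.07 with it (-0.08 to 0.21).

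Hspe1 read 11.92, 11.93, 12.05 and 11.91 in wild type, 12.07, 12.19, 12.13 and 12.16 in Atp7b-/-, and 12.06, 12.20, 12.11 and 12.22 with zinc. All 8 mutant arrays were above all wild type arrays on the probe set used, by a small margin. The differences of 0.18 and 0.19 did not pass (limma adjusted p = 0.0688 and 0.113), although the first passed in 5 of 23 settings. It was 0.24 as the mean of both probe sets of the gene (adjusted p = 0.0288) and 0.11 after quantile normalization (adjusted p = 0.289). Hspe1 was 1.13-fold and 1.14-fold above wild type without and with zinc. On its second probe set the untreated mutant arrays were also above wild type, by 0.29. With zinc that probe set overlapped wild type (difference 0.16), and zinc-treated replicate 1, at 8.87, was below every wild type array (8.96 to 9.11).

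In untreated Atp7b-/- against wild type, there was no overlap between arrays for 3 of the 9 genes. Dnajb1 and Hspb1 were below and Hspe1 above, where 26.4% of all genes showed no overlap, 12.1% below and 14.3% above. In zinc-treated Atp7b-/- against wild type, 3 of 9 were called lower and 0 higher, where 7.62% of all genes were called, 2.73% lower and 4.89% higher. There was no overlap for 3 of 9, with Dnajb1 and Hspa1b below and Hspe1 above, against 14.3% of all genes (6.45% below and 7.88% above). For Hspa1b the gap was between 9.94 and 9.96, and the other probe sets of Hspa1b and Hspe1 overlapped. The median over the 9 genes was -0.54, against -0.02 over all genes. Both comparisons use the same wild type arrays and are not independent of each other.

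In zinc-treated against untreated Atp7b-/-, limma called 0 of 9 genes, where 6.54% of all genes were called, 1.7% higher and 4.84% lower. At an unadjusted p under 0.05 limma gave 2, Hspa1a and Hspb1. There was no overlap for 1 of 9, Hspa1a, which was below, against 15.3% of all genes (9.39% below and 5.93% above). The median over the 9 genes was -0.03, against 0.01 over all genes.

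**Figure D3:**
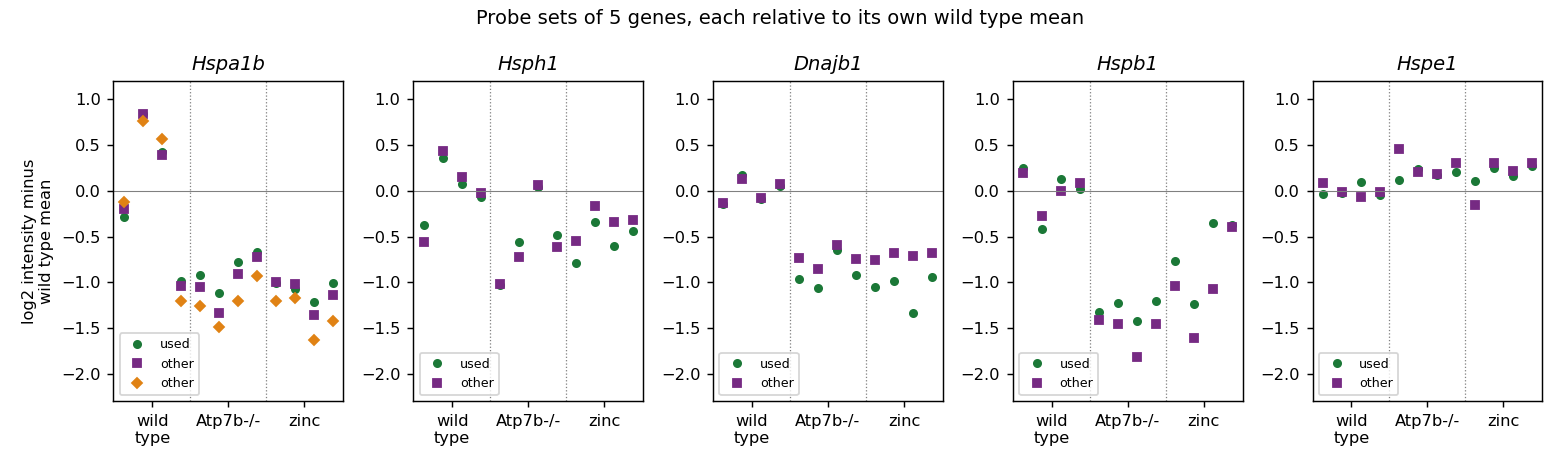
Log2 intensity of every probe set of Hspa1b, Hsph1, Dnajb1, Hspb1 and Hspe1 in the 12 arrays, each minus its own wild type mean (vertical axis), with dotted lines between the groups and the probe set used marked in the legend. Both Dnajb1 probe sets and both Hspb1 probe sets are below 0 in all mutant arrays, and the 3 Hspa1b probe sets place wild type replicate 4, the last wild type point, near the mutant arrays.

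Markers of other cell types also differed between the groups. Of 11 macrophage markers 7 fell in untreated Atp7b-/-, where 10.3% of all genes were called lower. The summed level of the 11 was 11.83 to 12.71 in wild type, 11.35 to 12.24 in Atp7b-/- and 11.60 to 11.96 with zinc. Their mean was 8.32 in untreated replicate 1, within the wild type range of 7.77 to 8.67, and 7.33 to 7.58 in untreated replicates 2 to 4. With zinc all 11 had values below wild type (median -0.58), and limma called 0. Within wild type their mean was 8.26, 8.67, 8.31 and 7.77 in replicates 1 to 4, the same order as Hspa1b. Of 8 liver endothelial markers 3 fell and 2 rose in untreated Atp7b-/-, where 10.3% of all genes were called lower and 14.3% higher. The summed level of the 8 was 11.08 to 11.18 in wild type, 10.87 to 11.04 in Atp7b-/- and 10.96 to 11.16 with zinc. No marker was at 0 on this scale. The part of these cells in the lower Hspb1, Dnajb1 and Hspa1b readings was not tested. In whole liver, fewer cells of a type and less RNA per cell cannot be told apart.

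Within the groups, 3 of the genes varied together most closely. After each array was set relative to its group mean, Hspa8 and Hsph1 had Pearson's r = 0.94 and Spearman's rho = 0.82 over 12 arrays, Hsp90aa1 and Hsph1 r = 0.84 and rho = 0.88, and Hspa8 and Hsp90aa1 r = 0.76 and rho = 0.77. Without the 2 arrays farthest from the median of the first gene, r was 0.87, 0.84 and 0.77. Hsph1, Hsp90aa1 and Hspa8 also went with Dnajb1, at r = 0.67, 0.65 and 0.58 (rho = 0.65, 0.73 and 0.44). Without the 2 farthest arrays these r were 0.59, 0.80 and 0.36. Hspb1 ran the other way, with r = -0.45 to Hspa8, -0.42 to Hsph1 and -0.40 to Hsp90aa1. Its highest r was with Hspd1 (0.70, rho = 0.76, and 0.63 without the 2 farthest arrays), and its lowest with Dnajb1 (-0.58). Hspd1 and Hspe1 had r = 0.49, and -0.04 without the 2 farthest arrays. Without setting arrays relative to group means, Hspb1 and Hspd1 had r = -0.62 and -0.72 with the 3' over 5' excess. The part of that excess in their r with each other was not tested. All of these r are descriptions over arrays that share a normalization, and 36 pairs of genes were computed.

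Outside the group, the 4 genes most like Hspa8 among 9088 genes of above-median level were Per2 (r = 0.88 over 12 arrays), Wdr70 (0.86), Fut11 (0.85) and Czib (0.85). Per2, a core gene of the circadian clock, was highest with Hspa8 in untreated Atp7b-/- replicate 3 (8.59) and lowest with it in replicate 1 (6.58). Its rho with Hspa8 was 0.76, and r was 0.81 without the 2 farthest arrays. The 4 most like Hspa1b were Bcl7c (0.93), Ddx41 (0.91), Nck1 (0.91) and Nucb2 (0.90). Bcl7c, a subunit of SWI/SNF chromatin remodelling complexes, read 8.93, 9.39 and 9.28 in wild type replicates 1 to 3 and 7.60 in replicate 4, where the mutant arrays lay between 7.24 and 7.73. Its rho was 0.45, so the high r rests on those 3 arrays. Ddx41, Nck1 and Nucb2 had rho = 0.95, 0.87 and 0.66 with Hspa1b. The 4 most like Hspd1 were Coq5 (0.86), Polr2m (0.82), Stard3nl (0.79) and Col4a1 (0.78). Their rho was 0.55, 0.68, 0.83 and 0.67, in that order. Without the 2 farthest arrays their r was 0.46, 0.66, 0.60 and 0.52.

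**Figure D4:**
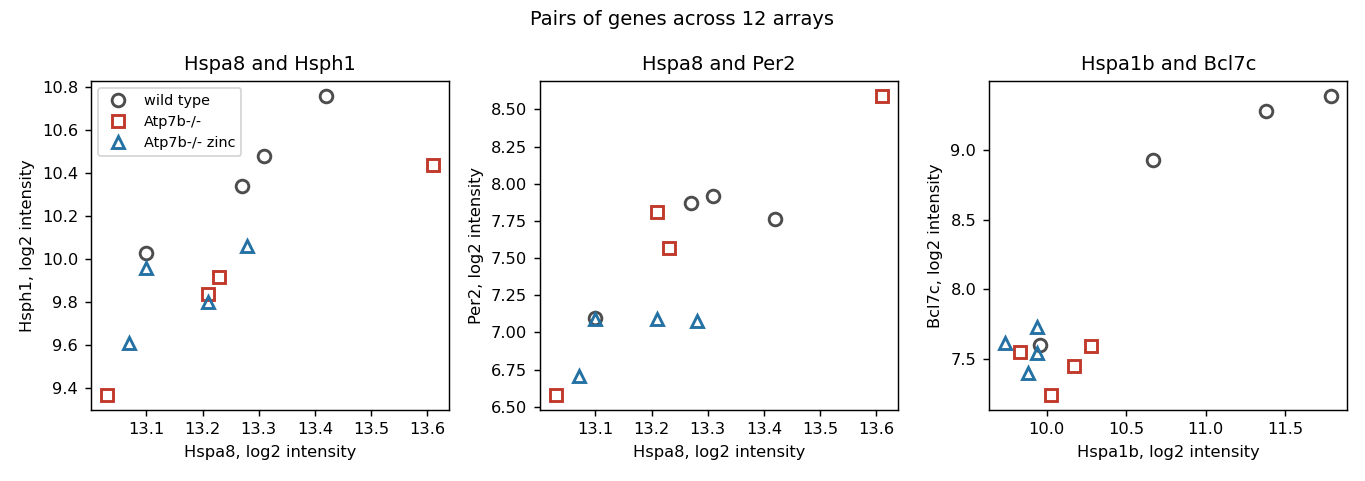
Log2 intensities of Hspa8 against Hsph1, Hspa8 against Per2 and Hspa1b against Bcl7c in the 12 arrays, by group. In the first panels the arrays of all groups spread along the diagonal, and in the last panel 3 wild type arrays stand apart from the other 9.

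The wider chaperone network moved in both directions. Of 124 measured genes in 9 lists of chaperones and their partners, 44 were called in untreated Atp7b-/- against wild type (35.5%, against 24.6% of all genes), 27 higher and 17 lower. Zinc-treated against untreated Atp7b-/- had 0 higher and 5 lower (4.03%, against 6.54% of all genes), and zinc-treated against wild type 5 higher and 7 lower (9.68%, against 7.62%). Both shares lie near those of all genes. The medians over these genes were 0.08, -0.05 and 0.03. In the list counts that follow for untreated Atp7b-/- against wild type, the shares to set beside them are 14.3% of all genes called higher and 10.3% lower.

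Of 9 other HSP70 and HSP110 genes, 1 rose in untreated Atp7b-/- (11.1% called). It was Hspa4l, an HSP110 relative of Hsph1, which went from 7.99 ± 0.21 (SD, n = 4) to 8.91 ± 0.06 (0.91, limma adjusted p = 0.000136) and was 0.61 above wild type with zinc (adjusted p = 0.00774). Without zinc-treated replicates 2 and 3 the latter was 0.46 and did not pass. Hspa4 and Hspa2 had differences of 0.14 and -0.38 without zinc and did not pass. Of 9 small heat shock proteins, Hspb3 alone was called in untreated Atp7b-/- (11.1%; -0.37, at a dim level of 4.49), a call lost in 10 of 22 settings, 5 of them with 1 array left out (wild type replicate 2 or 3 or untreated replicate 1, 2 or 4; -0.39 to -0.26). Hspb8, which works with Bag3, was 0.56 lower in zinc-treated than in untreated Atp7b-/- (10.89 ± 0.09 against 11.44 ± 0.01, limma adjusted p = 0.00243), and at -0.51 lost this call without untreated replicate 1 and zinc-treated replicates 2 and 3.

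Of 17 J-domain genes of cytosol and nucleus, 3 rose in untreated Atp7b-/- (Dnaja2, Dnajb2 and Dnajc2) and 5 fell (Dnaja4, Dnajb4, Dnajb5, Dnajc7 and Dnajc8), or 47.1% in all. Dnaja4 went from 6.89 ± 0.15 to 6.39 ± 0.15 and to 6.10 ± 0.29 with zinc (-0.49 and -0.79 from wild type). The first call was lost without wild type replicate 3 or untreated Atp7b-/- replicate 2. Dnajc7 was 0.36 below wild type in untreated Atp7b-/-, and Dnajc2 0.37 above it on a probe set with an _s_at, _x_at or _a_at ending. With such probe sets left out, Dnajc2 had -0.10. With zinc against wild type 0 of 17 rose and 3 fell (17.6%, against 7.62% of all genes).

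Of 23 co-chaperones of HSP70 and HSP90, 4 rose in untreated Atp7b-/- (Bag1, Bag6, Hspbp1 and Ppp5c) and 5 fell (Bag3, Bag4, Bag5, Stub1 and Ahsa2), or 39.1% in all. Bag proteins exchange nucleotide on HSP70, and Bag3, itself a stress-induced gene, steers clients to autophagy. Bag3 read 10.07, 10.60, 10.30 and 9.80 in wild type, 9.44, 9.72, 9.84 and 9.79 in Atp7b-/-, and 9.41, 9.21, 9.36 and 9.26 with zinc. Zinc-treated arrays were thus below all others. It was 0.49 lower in untreated Atp7b-/- (limma adjusted p = 0.0246) and 0.88 lower with zinc than in wild type (limma adjusted p = 0.00182). The first call was lost without wild type replicate 2 or 3 or untreated Atp7b-/- replicate 1, at -0.46 to -0.36. Bag4 was 0.66 and 0.52 below wild type without and with zinc, and Bag1 0.29 and 0.31 above it. After quantile normalization Bag1 was 0.20 above wild type without zinc and did not pass.

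Of 15 genes of the cytosolic chaperonin CCT and of prefoldin, which hands it actin and tubulin, 4 rose in untreated Atp7b-/- and 1 fell, with prefoldin subunits Pfdn1 (0.46), Vbp1 (0.35) and Pfdn4 (0.33) among the former (33.3% called). The calls of Vbp1 and Pfdn4 were lost after quantile normalization, at 0.24 and 0.19. Of 16 mitochondrial chaperones and proteases, 4 rose and 0 fell: Dnajc15 (0.53), Clpb (0.51), Spg7 (0.50) and Yme1l1. The share called, 25%, is near the 24.6% of all genes. As the mean of their probe sets Clpb and Spg7 had 0.29 and 0.15 and did not pass. Of 16 chaperones of the endoplasmic reticulum, 1 rose and 4 fell in untreated Atp7b-/- (31.2% called). Sdf2l1, which works with the HSP70 of that compartment, went from 10.40 ± 0.47 to 8.77 ± 0.67 (-1.64, limma adjusted p = 0.00132), and Dnajc3 fell by 0.49 (-0.31 and no call as the mean of its probe sets). Sil1, an exchange factor of the same HSP70, rose by 0.54.

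Of 6 heat shock factor genes and regulators, 2 rose and 1 fell in untreated Atp7b-/- (50% called), and Hsf1 was not analysed here. Hsbp1l1, a gene similar to the heat shock factor binding protein, went from 6.23 ± 0.75 to 7.98 ± 0.22 (1.75, limma adjusted p = 0.00115) and was at 6.73 ± 0.45 with zinc. The difference with zinc, -1.25 (limma adjusted p = 0.0293), lost its call in 9 of 23 settings, 6 of them with 1 array left out (untreated replicates 2, 3 and 4 and zinc-treated replicates 2, 3 and 4; -1.27 to -1.06). Hsf2bp was called at 1.0 and Hsf2, a dim gene, at -0.42. Hsf2bp lost its call in 6 of 23 settings, among them without wild type replicate 1 or 2 or untreated replicate 1 (0.78 to 0.90). Hsf2 lost it in 12 of 22, among them without wild type replicate 2, 3 or 4 or untreated replicate 2 or 3 (-0.44 to -0.33).

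Of 13 genes of ubiquitin and the proteasome, which degrade what chaperones release, 8 rose and 0 fell in untreated Atp7b-/-, with 61.5% called and a median of 0.30. The proteasome subunits Psma1 and Psmd14 rose by 0.74 and 0.61 (limma adjusted p = 7.11e-05 and 0.00018), and Vcp, the ATPase that extracts ubiquitinated proteins, by 0.59 (limma adjusted p = 0.000404). As the mean of its probe sets Vcp rose by 0.25. With zinc, Psma1 was 0.51 and Psmd14 0.37 above wild type, and 2 of 13 were called higher and 0 lower (15.4%, against 7.62% of all genes). As the mean of its probe sets Psma1 with zinc was at 0.27 and did not pass, and Psmd14 lost its call without zinc-treated replicate 4, at 0.35, without zinc-treated replicates 2 and 3, at 0.39, and after quantile normalization, at 0.32.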

How the data were processed

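Liver RNA of 12 mouse samples was measured on Affymetrix GeneChip arrays, per the labels' protocols. The authors deposited log2 intensities, recognised as such by their range (2.22 to 15.2), and how they were summarised and normalized is not stated in the labels. The deposited values were used without further scaling. Probe sets with exactly 1 gene symbol in the platform annotation (34945 of 45101) gave 18193 genes; 64 control probe sets were left out. A single limma fit (limma 3.58.1, R 4.3.3) of the 3 group means used every array, with Benjamini-Hochberg adjustment over all genes and calls at 0.05. No filter on low values was applied, so every share over all genes includes dim genes, which were called less often. All 9 measured members entered the fit. Array number, 4 per group, limits the precision. The fit was tested on simulated data. Named are the members, up to 3 genes per chaperone list with the smallest adjusted p, and the 4 genes most correlated with Hspa1b, Hspa8 and Hspd1. Further list genes, Atp7b and Mt1 were named after their values were seen. Members and lists were chosen with earlier results of these data known. Alternatives covered normalization, probe sets, a filter on dim genes, variance models, a replicate block and left-out arrays. Deviations of same-numbered arrays correlated between -0.13 and 0.24 over genes, so the numbers were not taken to pair arrays.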

Additional observations from a re-analysis of the deposited data

Results flagged for a closer look

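In 2 of the 27 sets of 4 arrays (9 genes in 3 groups), 1 array lay far from the other 3 by Dixon's 95% criterion, where chance gives about 5% of sets. Hsp90aa1 was 12.16 in wild type replicate 1, and the nearest of the others was 12.58. Hspe1 was 12.05 in wild type replicate 3, and the nearest was 11.93; both are small distances on the log2 scale.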

How the results depend on the processing

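Across the alternatives, the lower Dnajb1 against wild type, without and with zinc, and the lower Hspb1 in untreated Atp7b-/- kept their call in each of the settings in which they could be computed (23, 23 and 22). With 3 of 9 members called in untreated Atp7b-/- against wild type, the count ranged from 2 to 4. For zinc-treated against untreated Atp7b-/- (0 of 9) it was 1 with dim genes left out, after quantile normalization, with the replicate block and without zinc-treated replicates 2 and 3, and 0 to 1 when single arrays were left out. For zinc-treated Atp7b-/- against wild type (3 of 9) it was 1 with only the 8 arrays compared, without zinc-treated replicates 2 and 3, and without these and untreated replicate 1, and 1 to 3 when single arrays were left out. Over all genes, zinc-treated against untreated Atp7b-/- gave 1861 calls with array weights, 614 and 598 without zinc-treated replicates 2 and 3 and without these and untreated replicate 1, and 689 to 1158 with single arrays left out, against 1190. Zinc-treated against wild type gave 699 and 881 with the same 2 sets of arrays left out, against 1386, and 932 to 1639 with single arrays left out. Fewer arrays enter those fits; other causes were not tested. With the replicate block, Hspa1b lost both calls against wild type (-0.87, adjusted p = 0.0558; -1.07, adjusted p = 0.0557), and Hsph1 against wild type (-0.51, adjusted p = 0.0269; -0.54, adjusted p = 0.0478) and Hspb1 between treated and untreated mutants (0.61, adjusted p = 0.0478) passed; the block changed no other member's call. Of 612 member values under alternatives, 35 lost a call, 18 gained one, and 8 that were called in neither setting moved by more than the spread. The other 551 kept their side of the threshold. Those of them called in neither the main setting nor the alternative moved by no more than the spread, which was not checked for called values. No difference that was called, there or in the main setting, turned its sign; 38 differences called in neither did (-0.25 to 0.18), among them Hsp90aa1, Hspa1a, Hspa8 and Hspd1 in untreated Atp7b-/- against wild type and Hspe1 and Hsph1 between the mutant groups. With probe sets ending in _s_at, _x_at or _a_at left out, list genes with a call in either setting turned direction: Cryab (-0.35), Dnajc2 (-0.10) and Spg7 (-0.21) in untreated Atp7b-/- against wild type, and Dnajc2 (0.03) and Spg7 (0.19) in zinc-treated against untreated; another probe set is read there.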

Other observations

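Within wild type, Hspa1b did not vary alone. Mt1, the metallothionein that stores copper and zinc, read 9.10, 11.17, 8.71 and 7.14 in wild type replicates 1 to 4, and Hspa1b 10.67, 11.79, 11.38 and 9.96. Both were highest in replicate 2 and lowest in replicate 4, but replicates 1 and 3 were in opposite order. The mean of the 11 macrophage markers, at 8.26, 8.67, 8.31 and 7.77, had the order of Hspa1b in all 4 arrays. The 3' over 5' excess, at 0.72, 0.78, 0.71 and 0.62, was also highest in replicate 2 and lowest in replicate 4, in the order of Mt1. Over all 12 arrays its r with Hspa1b was 0.07. The part of any of these in the Hspa1b values was not tested. In the mutants Mt1 lay between 14.29 and 14.79 and Hspa1b between 9.74 and 10.28. Dnajb1, at 9.30, 9.62, 9.35 and 9.50, was also highest in wild type replicate 2 but was not low in replicate 4.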
